A study of Saccharomyces cerevisiae with 20 samples.

Results

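B-type cyclins and the proteins that act on them drive yeast through S phase and mitosis, and their transcripts were followed here in starved cultures. The members were 9 genes chosen by name: the 6 B-type cyclins CLB1 (YGR108W), CLB2 (YPR119W), CLB3 (YDL155W), CLB4 (YLR210W), CLB5 (YPR120C) and CLB6 (YGR109C), and CDC20 (YGL116W), CDC5 (YMR001C) and SIC1 (YLR079W). All 9 were listed among the 6921 genes of the study. The RNA-Seq data covered Saccharomyces cerevisiae W303 RAD5+ grown in YPD, as wild type (WT) or as a null mutant in which TUP1, SDS3, XBP1 or ISW2 had been replaced with an antibiotic resistance marker. Each of the 5 strains was harvested during diauxic shift (DS), after glucose was no longer detectable, and in stationary phase (SP), with 2 libraries per group and 20 libraries in all. Every strain carried the same parental background, no gene was re-introduced into a deletion, and the Δtup1 cultures are described as clumping unusually. In such whole cultures, fewer cells of a kind and less RNA per cell cannot be told apart.

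A cyclin gives the cyclin-dependent kinase Cdc28 its activity and part of its targets. Clb5 and Clb6 drive DNA replication, Clb3 and Clb4 act from replication to spindle formation, and Clb1 and Clb2 drive mitosis. Each of these 3 pairs consists of paralogs. Sic1 inhibits Clb-Cdc28 in G1, the polo-like kinase Cdc5 promotes mitotic entry and exit, and Cdc20 turns on the anaphase-promoting complex, which marks securin and cyclins for destruction. Cells that run out of glucose normally stop in G1, where Clb-Cdc28 activity is low. The deleted genes encode repressors or chromatin factors: the corepressor Tup1, the Rpd3L histone deacetylase subunit Sds3, the starvation-induced DNA-binding repressor Xbp1, and the remodelling ATPase Isw2.

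Total reads on genes ran from 20963633 to 32558227 per library in DS. In SP they ran from 9994448 to 28421881 in library A of each strain and from 2543155 to 4424289 in library B, where A is the library whose column name ends in the lowest number of its group and B the other. The SP B library of each deletion also carries another strain number than its A library. A value from a B library in SP therefore rests on fewer reads. The deleted gene had at most 8 reads in each library of its own deletion. Replicates lay close together in 9 of the 10 groups, where at most 5.04% of 5719 genes were 2-fold or more apart. The Δsds3 group in DS stood apart, with 36.2% of genes 2-fold or more apart between its libraries.

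Promoter sequence is shown for 3 members of the paralog pairs whose ratio, given below, left the WT range in every Δsds3 library. The 3 hold words recognised by known cell cycle or starvation regulators. The 500 bases before each start codon were searched on both strands in the R64 reference (S288C, the sacCer3 assembly), for short words given here, of which GCCGCC was added after values had been seen. CTCGA, the word bound by Xbp1, was found in 4 of 9 members (CLB2, CLB4, CLB5 and CDC5) and in 39.4% of 6019 promoters. ACGCG, the word of the G1/S factor MBF, was found in CLB5, CLB6 and SIC1 and in 23.8% of promoters. The forkhead word GTAAACA was found in CLB4 and CLB6 and in 10.3% of promoters, and CACGAAA of SBF in SIC1 and in 7.13%. The words CGCGAAA of SBF and GCCGCC of Ume6 were found in no member, against 5.8% and 9.54% of promoters. A match is a description of the letters and not evidence of binding, and overlapping matches on opposite strands were counted separately. The runs below are written 5′ to 3′ on the strand of the gene. Capitals mark CTCGA and GTAAACA in CLB4 (chrXII:561608-561907, plus strand), CTCGA and ACGCG in CLB5 (chrXVI:775513-775682, minus strand), and ACGCG and GTAAACA in CLB6 (chrVII:706832-706961, minus strand), read on either strand.
CLB4: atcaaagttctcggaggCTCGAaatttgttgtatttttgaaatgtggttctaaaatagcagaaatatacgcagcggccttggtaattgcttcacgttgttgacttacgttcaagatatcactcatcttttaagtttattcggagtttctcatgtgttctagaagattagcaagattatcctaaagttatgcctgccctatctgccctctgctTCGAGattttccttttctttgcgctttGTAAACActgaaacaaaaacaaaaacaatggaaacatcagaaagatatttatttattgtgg
CLB5: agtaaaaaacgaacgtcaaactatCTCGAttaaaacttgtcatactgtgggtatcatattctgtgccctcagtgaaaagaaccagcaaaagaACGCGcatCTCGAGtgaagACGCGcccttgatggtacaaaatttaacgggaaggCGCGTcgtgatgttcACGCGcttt
CLB6: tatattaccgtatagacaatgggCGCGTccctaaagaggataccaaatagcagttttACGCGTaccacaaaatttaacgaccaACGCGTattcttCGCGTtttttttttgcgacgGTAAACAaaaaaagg

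The CLB4 run holds CTCGA at 383 and 188 bases before the start codon of CLB4 and GTAAACA at 161. Its paralog CLB3 held none of these words. The CLB5 run shows 4 of its 5 ACGCG matches beside all 3 of its CTCGA matches, and the CLB6 run shows all 6 of its ACGCG matches and no CTCGA.

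Levels in WT set the frame. As reads per kilobase of coding sequence, scaled by the total reads of the library (RPKM), the 2 WT libraries in DS held 136 and 97.9 for SIC1, by far the most abundant member. CLB3 followed with 27.3 and 22.2, then CLB5 with 18.4 and 20.3, CDC20 with 11.9 and 13.6, and CDC5 with 9.95 and 9.48. CLB1 (6.16 and 8.90) overlapped CLB4 (5.02 and 6.30), CLB2 had 3.25 and 3.61, and CLB6 was lowest at 0.403 and 0.440. In WT SP the order was kept except that CDC5, at 22.2 and 19.8 RPKM, moved up beside CLB3 at 21.8 and 20.9, and those ranges overlapped. CLB6 had 10 reads in WT SP library A and 0 in library B, where a count of 0 allows up to 3 reads. In WT 1 paralog of each pair was the more abundant: within a library, the RPKM ratio of CLB2 to CLB1 lay between 0.255 and 0.671, that of CLB4 to CLB3 between 0.184 and 0.306, and that of CLB6 to CLB5 between 0 and 0.0219. Stretches of 37 bases, the length of the sequenced ends, were unique in the genome for all 9 coding sequences. CLB1 and CLB6 converge on chromosome VII with 307 bases between their coding sequences, and CLB2 and CLB5 converge on chromosome XVI with 746. Whether strand was used in counting is not given in the sources used here.

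**Figure D1:**
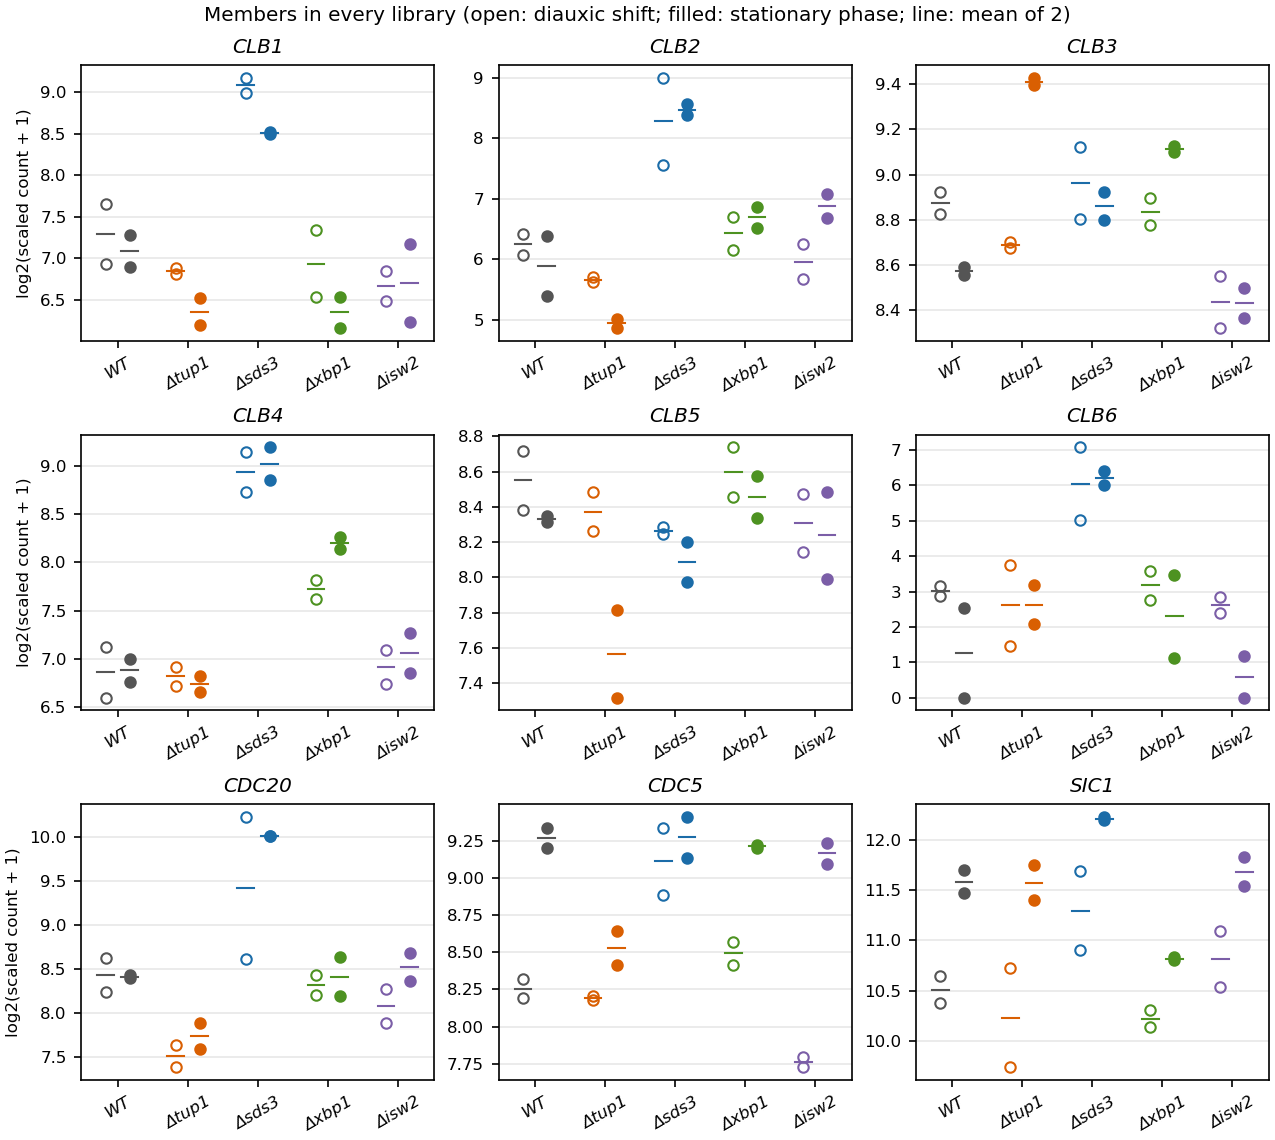
Each panel plots 1 member on the y axis as log2(scaled count + 1), with reads scaled together over all 20 libraries, against strain on the x axis; open circles are DS libraries, filled circles SP libraries, and lines the mean of 2. The Δsds3 libraries of CLB1, CLB2, CLB4 and CLB6 lie above those of every other strain in both phases, and the Δtup1 SP libraries of CLB3 lie above all other SP libraries.

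Deletion of SDS3 raised most members in SP. There, 6 of 9 members rose in Δsds3 against WT and none fell: CLB1, CLB2, CLB4, CLB6, CDC20 and SIC1. A member was called when the limma adjusted p was below 0.05 and the change at least 1.5-fold. CLB6 passed the filter on low counts only through its Δsds3 libraries, so its call adds no separate support. Over all genes tested in that comparison, 53.0% were called, 27.6% higher and 25.4% lower. The members' median log2 difference was 1.41, against 0.00 for all genes. Values are the deposited counts, divided by the size factors of each comparison's own table, so WT values differ between tables although the WT reads were identical.

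Among the mitotic cyclins, CLB2 had 64.4 and 31.4 normalized counts in the WT libraries A and B and 257 and 290.1 in Δsds3. The groups were far apart, and the difference was 2.57 on the log2 scale (SE 0.32, limma adjusted p = 7.2e-05), or 5.95-fold. CLB1 had 92.1 and 118.5 in WT and 279 and 279.5 in Δsds3, a log2 difference of 1.41 (SE 0.22, limma adjusted p = 0.00026). The within-library CLB2 to CLB1 ratio was 0.882 and 0.996 in Δsds3 SP, above the WT range of 0.255 to 0.671. In Δsds3 DS this ratio was 0.849 and 0.352. Within libraries of the same letter, CLB2 differed by 1.98 on the log2 scale for A and 3.17 for B, the B value resting on 13 WT reads, and CLB1 by 1.59 and 1.23.

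CLB4 had 99.3 and 82.2 normalized counts in WT and 454 and 354 in Δsds3. Its log2 difference was 2.14 (SE 0.22, limma adjusted p = 1.9e-05), or 4.4-fold. Its paralog CLB3 had 301 and 288 in WT against 376 and 340.7 in Δsds3, a log2 difference of 0.28 (SE 0.17, limma adjusted p = 0.18). The 2 genes of the pair were therefore near the same level in Δsds3: the within-library CLB4 to CLB3 ratio was 1.12 and 0.965 in SP and 0.941 and 0.882 in DS. All 4 Δsds3 libraries lay above the WT range of 0.184 to 0.306, and such a ratio does not depend on how libraries are scaled. With 2 libraries against 2, no exact test of a ratio can pass 0.05, so none is given.

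CLB6 showed the same split from its partner CLB5. CLB6 had 10 and 0 reads in WT and 121 and 24 in Δsds3, which are 3.79 and 0 against 49.3 and 63.9 normalized counts. The fitted log2 difference was 4.71 (SE 0.79). With a WT library at 0 its size depends on the pseudocount, and it ran from 3.21 to 5.84 over the alternatives. CLB6 passed the filter on low counts only through the Δsds3 libraries, since the same WT reads did not pass beside the other deletions. No p-value is therefore given for it. CLB5 had 248.5 and 249 in WT and 227 and 191.6 in Δsds3, a log2 difference of -0.25 (SE 0.19, limma adjusted p = 0.27). Within a library the CLB6 to CLB5 ratio was 0.248 and 0.381 in Δsds3 SP and 0.493 and 0.120 in Δsds3 DS, all above the WT range of 0 to 0.0219. The 2 promoters printed above both hold several ACGCG words.

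Of the regulators, CDC20 had 270 and 256 normalized counts in WT and 800.2 and 788 in Δsds3 SP. That difference of 1.59 on the log2 scale (SE 0.16, limma adjusted p = 1.6e-05) was about the same for the A libraries (1.57) and the B libraries (1.62). SIC1, the inhibitor, rose too: 2220.0 and 2548 in WT against 3643 and 3687, a log2 difference of 0.62 (SE 0.15, limma adjusted p = 0.0042). Without WT library A the SIC1 difference was 0.52 and under 1.5-fold. CDC5 had 506 and 449.7 in WT and 436 and 522 in Δsds3, overlapping groups with a log2 difference of 0.00 (SE 0.17, limma adjusted p = 1.0). Scaling by total reads moved the median of all genes in this comparison by 0.56 on the log2 scale. CLB3 was then also called, at 0.84, and CLB5 changed sign to 0.31 with limma adjusted p = 0.19. CDC5 moved to 0.56 with limma adjusted p = 0.019, under 1.5-fold. The 6 calls above were kept under all 9 alternative settings, of which the setting without a minimum fold could not lose a call.

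**Figure D2:**
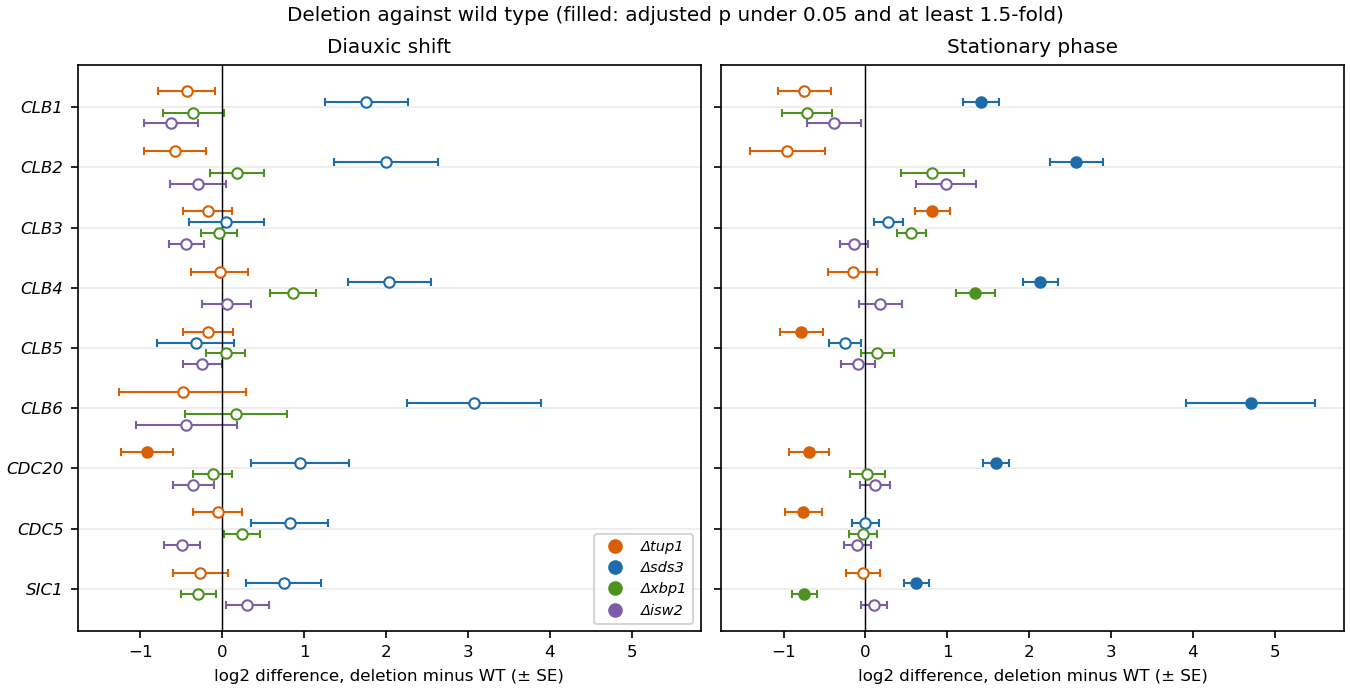
The x axis gives the log2 difference of each deletion minus WT and bars its standard error, for the 9 members on the y axis in DS (left) and SP (right); each colour is a deletion, and filled points passed an adjusted p of 0.05 with at least 1.5-fold. In SP the Δsds3 points of CLB2 (2.57) and CLB4 (2.14) lie to the right of the other deletions, while those of CLB5 (-0.25) and CDC5 (0.00) lie at or below 0. CLB6 has an SP point only in Δsds3 (4.71), the only deletion in which it passed the filter on low counts there.

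Deletion of XBP1 changed 1 member in each direction in SP, of the 8 tested. These shares are near those of all genes, of which 12.3% were called higher and 11.5% lower. CLB4 had 72.9 and 60.4 normalized counts in WT and 162 and 177 in Δxbp1, a log2 difference of 1.34 (SE 0.24, limma adjusted p = 0.0015). SIC1 fell, from 1631 and 1872 in WT to 1032 and 1052 in Δxbp1, a log2 difference of -0.75 (SE 0.15, limma adjusted p = 0.0029). Both calls were kept in every alternative setting, of which the setting without a minimum fold could not lose a call. Over these settings and the fits with 1 library left out, the log2 differences ran from 1.21 to 1.49 for CLB4 and from -0.84 to -0.60 for SIC1. CLB4 was thus higher in Δxbp1 and in Δsds3, while SIC1 was lower in Δxbp1 and higher in Δsds3; both comparisons share the same WT reads. CLB3 had 221 and 211 in WT and 316 and 323 in Δxbp1, and its log2 difference of 0.56 (SE 0.18, limma adjusted p = 0.034) missed the minimum fold by little, 1.48 against 1.5.

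Of the 4 members that hold the CTCGA word, CLB4 rose, and CLB5 (0.14, limma adjusted p = 0.62) and CDC5 (-0.03, limma adjusted p = 0.91) were near 0 on the log2 scale in SP. CLB2, the fourth, had 47.3 and 23.1 normalized counts in WT and 66.7 and 52.3 in Δxbp1, a log2 difference of 0.82 (SE 0.39, limma adjusted p = 0.13). Without WT library A the log2 difference was 1.32 for CLB2 and 0.59 for CLB3. The CLB2 value then rests on the 13 reads of WT library B. The within-library CLB4 to CLB3 ratio was 0.382 to 0.510 over the 4 Δxbp1 libraries, above the WT range and below the Δsds3 range. In Δisw2 it was 0.295 to 0.432, overlapping both the WT and the Δxbp1 libraries. The CLB2 to CLB1 ratio was 1.21 and 1.23 in Δxbp1 SP, above the WT range of 0.255 to 0.671. Its library B value rests on 18 and 14 reads. CLB1 had 67.6 and 87.0 in WT against 52.9 and 40.7 (log2 difference -0.71, SE 0.30, limma adjusted p = 0.098), CDC20 differed by 0.02 (limma adjusted p = 0.95), and CLB6 had at most 10 reads in any of these libraries and did not pass the filter on low counts.

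Deletion of TUP1 changed 4 of the 8 members tested in SP, a share near the 49.7% of all genes called. Of these 3 fell and 1 rose, where 24% of all genes were called lower and 25.7% higher. The 3 that fell were CLB5, CDC20 and CDC5, and the 1 that rose was CLB3. CLB3 had 240.2 and 236 normalized counts in WT and 428 and 412.5 in Δtup1, a log2 difference of 0.82 (SE 0.21, limma adjusted p = 0.0081). CLB5 had 198 and 204 in WT and 98.7 and 137.5 in Δtup1, a log2 difference of -0.78 (SE 0.26, limma adjusted p = 0.027). CDC5 had 403 and 369 in WT and 248 and 209 in Δtup1 (-0.76, SE 0.22, limma adjusted p = 0.015). CDC20 had 215 and 210.2 in WT and 119.5 and 145 in Δtup1 (-0.69, SE 0.25, limma adjusted p = 0.035).

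The mitotic cyclins were also lower in both Δtup1 SP libraries, without passing the test, and groups did not overlap in 76.8% of all genes. CLB2 had 51.4 and 25.8 normalized counts in WT and 19.5 and 17.2 in Δtup1 (-0.96, SE 0.46, limma adjusted p = 0.10), and CLB1 had 73.4 and 97.1 against 56.4 and 44.2 (-0.75, SE 0.32, limma adjusted p = 0.073). CLB4 (-0.16, limma adjusted p = 0.69) and SIC1 (-0.03, limma adjusted p = 0.92) had overlapping groups. The CLB4 to CLB3 ratio was 0.151 and 0.138 in Δtup1 SP, below all 4 WT libraries. Without WT library A, or without WT library B, 0 of the 4 was called, although the log2 differences stayed about as large: 0.83 and 0.80 for CLB3, -0.80 and -0.76 for CLB5, -0.67 and -0.71 for CDC20, and -0.69 and -0.82 for CDC5. The limma adjusted p for CLB3 was then 0.052 and 0.057. Without Δtup1 library A, CLB5 (-0.55) and CDC20 (-0.55) were lost and CLB1 was called (-0.92). CDC20 was also lost with no filter (limma adjusted p = 0.053) and with DESeq2 (adjusted p = 0.062), and CLB2 was called with edgeR (-1.19) and in the fit of all SP libraries (-0.94).

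Compared with each other in SP, in a fit of all 20 libraries chosen after the values were seen, Δsds3 exceeded Δtup1 in 6 of 9 members (23.2% of all genes were higher). The differences were 3.54 on the log2 scale for CLB2 (SE 0.44, limma adjusted p = 1.5e-05), 2.28 for CLB4, 2.27 for CDC20, 2.15 for CLB1, 3.58 for CLB6 and 0.75 for CDC5. CLB3 was at -0.55 (limma adjusted p = 0.027, under 1.5-fold) and turned to 0.12 with scaling by total reads, which also called CLB5 (1.19) and SIC1 (1.31), 8 of 9 in all. Leaving out 1 library lost CLB6 (without Δsds3 B, or without Δtup1 A) and CDC5 (without Δsds3 B, or without Δtup1 B). Δsds3 exceeded Δxbp1 in 6 of 9 members (19.0% of all genes were higher). These were CLB1 (2.16), CLB2 (1.78), CLB6 (3.91), CDC20 (1.60), SIC1 (1.40, SE 0.31, limma adjusted p = 0.0029) and CLB4 (0.82, SE 0.27, limma adjusted p = 0.028), the last of which was lost when any 1 of the 4 libraries was left out, at 0.65 to 0.99. Without Δxbp1 library B, CLB2 and CDC20 missed the threshold at limma adjusted p = 0.057 and 0.058, and without Δxbp1 library A, CLB6 did at 0.089. Δxbp1 exceeded Δtup1 in CLB2 (1.76, SE 0.44, limma adjusted p = 0.0051), CLB4 (1.46, SE 0.27, limma adjusted p = 0.00071), CLB5 (0.89) and CDC5 (0.69), where 17.6% of all genes were higher. CLB5 was lost without Δtup1 A or Δxbp1 A, and CDC5 without Δtup1 B, Δxbp1 A or Δxbp1 B.

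Deletion of ISW2 called no member in SP with limma, edgeR or DESeq2, where 1.92% of all genes were called, 1.21% higher and 0.706% lower. With limma, 1 of 8 members had an unadjusted p under 0.05. That member was CLB2, with 47.6 and 23.4 normalized counts in WT and 77.2 and 58.6 in Δisw2, a log2 difference of 0.99 (SE 0.36, limma adjusted p = 0.23). Without WT library A it was 1.48, but this rests on the 13 CLB2 reads of WT library B, which the Δxbp1 comparison shares. The other 7 lay between -0.38 (CLB1) and 0.18 (CLB4) on the log2 scale. The within-library CLB2 to CLB1 ratio was 0.899 and 1.32 in Δisw2 SP, above the WT range of 0.255 to 0.671. Its library B value rests on 22 and 16 reads.

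**Figure D3:**
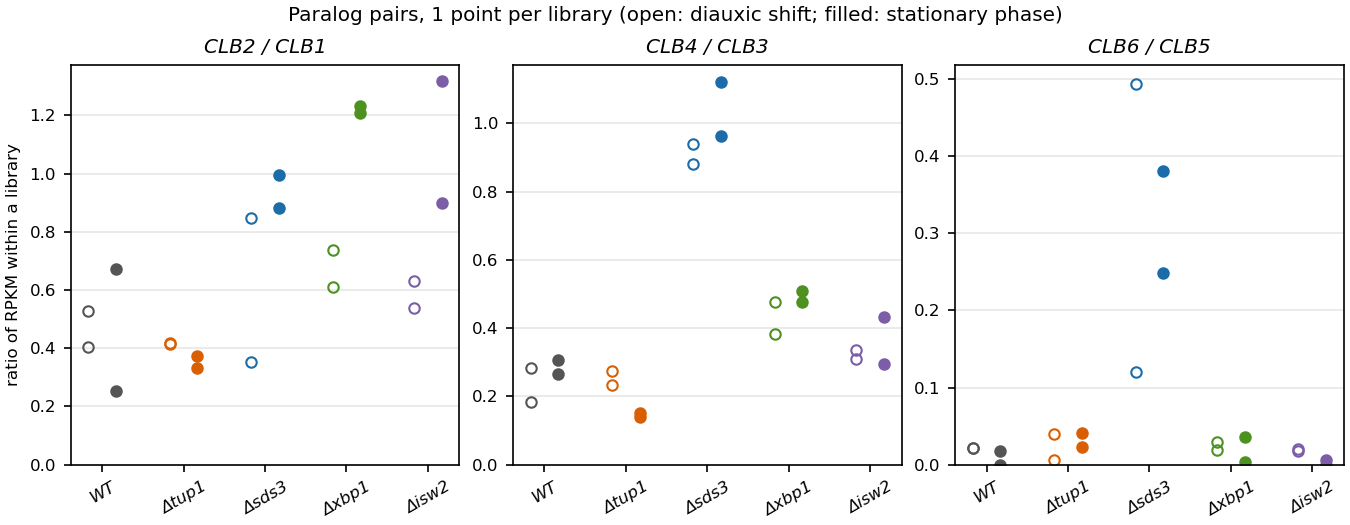
Each point is 1 library, with the ratio of RPKM of the 2 paralogs on the y axis (from 0) and strain on the x axis; open points are DS and filled points SP. The 4 Δsds3 libraries lie at 0.882 to 1.12 for CLB4 over CLB3 against 0.184 to 0.306 in WT, and at 0.120 to 0.493 for CLB6 over CLB5 against at most 0.0219 in WT. For CLB4 over CLB3, Δxbp1 spans 0.382 to 0.510 and Δisw2 0.295 to 0.432. For CLB2 over CLB1 the WT libraries lie at 0.255 to 0.671. There Δsds3 spans 0.352 to 0.996, Δxbp1 0.611 to 1.23, Δisw2 0.538 to 1.32 and Δtup1 0.331 to 0.418.

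In DS fewer members passed the test. In Δsds3 DS, limma called 0 of 9 members, where 2.79% of all genes were called. 4 members had an unadjusted p under 0.05, edgeR called 0 and DESeq2 called 4. The 4 were CLB1, CLB2, CLB4 and CLB6 in each case. The share of all genes with an unadjusted p under 0.05 is not given. DESeq2 also called more of all genes here than limma did, as the closing section gives. These counts are therefore not read as exceeding those of all genes. CLB4 had 206 and 281 normalized counts in WT and 1158 and 854 in Δsds3 (log2 difference 2.04, SE 0.51, limma adjusted p = 0.070). CLB1 had 259 and 406 in WT against 1184 and 1027 (1.76, SE 0.50, limma adjusted p = 0.094). CLB6 had 13.7 and 16.2 against 276 and 63.9 (3.08, SE 0.82, limma adjusted p = 0.079), and CLB2 had 142 and 172 against 1047 and 377 (2.00, SE 0.63, limma adjusted p = 0.11). In all 4 genes both Δsds3 libraries lay above both WT libraries, where the groups did not overlap in 56.3% of all genes.

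In CDC20 the Δsds3 libraries in DS were far apart, at 2457 in library A and 788 in library B against 649 and 801 in WT. Its log2 difference was 1.92 for the A libraries and -0.02 for the B libraries, and the fitted value 0.95 (SE 0.60, limma adjusted p = 0.37). Without Δsds3 library A the log2 differences were 1.66 for CLB1, 1.26 for CLB2, 1.82 for CLB4 and 2.03 for CLB6. Without Δsds3 library B they were 1.86, 2.74, 2.26 and 4.12 in the same order. Each of these fits rests on 1 Δsds3 library. In the full fit CLB3 (0.05, limma adjusted p = 0.96) and CLB5 (-0.32, limma adjusted p = 0.71) were not called, as in SP with the deposited scaling. CDC5 (0.82, limma adjusted p = 0.33) and SIC1 (0.75, limma adjusted p = 0.36) were not called. In both genes the 2 Δsds3 libraries lay above the 2 WT libraries, where groups did not overlap in 56.3% of all genes. Since the interaction test called no member of Δsds3, where 2.03% of all genes were called, 1.16% lower, a difference between the phases in its effect was not shown. That test turned on single libraries: without Δsds3 DS library A it called CDC20, at 1.42, and without DS library B it called CDC5, at -1.08.

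In Δtup1 DS, CDC20 alone was called, lower, where 20.1% of all genes were called, 6.27% lower. It had 571 and 716 normalized counts in WT and 312 and 366 in Δtup1, a log2 difference of -0.92 (SE 0.31, limma adjusted p = 0.042). CDC20 was thus lower in Δtup1 in both phases. The call was lost when any 1 of the 4 libraries was left out (log2 differences -1.08 to -0.76, limma adjusted p 0.055 to 0.21), with no filter (limma adjusted p = 0.061) and in the fit of all DS libraries (limma adjusted p = 0.27). All 9 members were below 0, the other 8 between -0.58 (CLB2) and -0.03 (CLB4). In Δxbp1 DS limma, edgeR and DESeq2 called 0 of 9 members, where 0.465% of all genes were called (0.432% higher and 0.032% lower), and 1 had an unadjusted p under 0.05. That was CLB4, with 178 and 247 in WT and 359 and 406 in Δxbp1 (0.86, SE 0.28, limma adjusted p = 0.47), the gene that rose in SP. The remaining members lay between -0.35 (CLB1) and 0.24 (CDC5) on the log2 scale. In Δisw2 DS the same tools called 0 of 9, where 0.096% of all genes were called (0.064% higher and 0.032% lower), and none had an unadjusted p under 0.05. The 9 members lay between -0.63 (CLB1) and 0.31 (SIC1) on the log2 scale. CDC5 had 573 and 609 in WT and 434 and 405 in Δisw2 (-0.49, SE 0.22, limma adjusted p = 1.0).

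Next, SP was set against DS within each strain, after all 20 libraries had been scaled together. Phase and depth of the B libraries differ together here. In WT 2 members rose, CDC5 and SIC1, where 16.1% of all genes were called, 7.83% higher and 8.26% lower. CDC5 had 291 and 318 scaled counts in WT DS and 647 and 588 in WT SP, a log2 difference of 1.02 (SE 0.21, limma adjusted p = 0.0056). SIC1 had 1601 and 1327 in DS and 2839 and 3329.7 in SP, a log2 difference of 1.08 (SE 0.31, limma adjusted p = 0.030). The SIC1 call was lost with scaling by total reads (limma adjusted p = 0.065) and when any 1 of the 4 libraries was left out (0.94 to 1.21). The 6 cyclins and CDC20 did not pass, with log2 differences between -1.75 (CLB6, SE 1.01) and 0.02 (CLB4).

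CDC5 rose from DS to SP in Δisw2 and Δxbp1 as well. It had 221.5 and 211 scaled counts in Δisw2 DS and 602.5 and 547 in SP (1.41, SE 0.21, limma adjusted p = 0.00085), where 16.3% of all genes were called, 7.91% higher and 8.41% lower. In Δxbp1 it had 341 and 379 in DS and 598 and 588.5 in SP (0.72, SE 0.21, limma adjusted p = 0.026), where 20.2% of all genes were called, 9.05% higher. The Δxbp1 call was lost when any 1 of the 4 libraries was left out, at 0.65 or more. In Δsds3 CDC5 was already at 647 and 472 in DS and stood at 561 and 681 in SP (0.16, limma adjusted p = 0.63), and limma called 0 of 9 members, where 7.27% of all genes were called, 3.3% higher and 3.96% lower. There 1 member, SIC1 (0.92, SE 0.31, limma adjusted p = 0.078), had an unadjusted p under 0.05, and edgeR and DESeq2 called 0. Without Δsds3 DS library A, CDC20 (1.40) and SIC1 (1.31) were called.

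In Δtup1, 2 members rose from DS to SP, CLB3 and SIC1, and CLB5 fell, where 26.9% of all genes were called, 12.9% higher and 14.0% lower. CLB3 had 408 and 416 scaled counts in DS and 688 and 672 in SP (0.72, SE 0.19, limma adjusted p = 0.013). SIC1 had 853 and 1693 in DS and 2701 and 3445 in SP (1.34, SE 0.31, limma adjusted p = 0.0067). CLB5 had 357 and 306 in DS and 159 and 224 in SP (-0.81, SE 0.25, limma adjusted p = 0.028). CLB3 was lost without Δtup1 SP library A, SP library B or DS library A, SIC1 without SP library B or DS library A, and CLB5 without SP library A or DS library A. The CLB5 call was also lost with scaling by total reads (-0.52, limma adjusted p = 0.20) and in the fit of the Δtup1 libraries alone (limma adjusted p = 0.058). CLB3 was the only member whose deletion effect differed between the phases by test, in any of the 4 deletions. Its Δtup1 effect was higher in SP than in DS by 1.02 on the log2 scale (SE 0.27, limma adjusted p = 0.039), where 5.9% of all genes were called, 2.71% higher, and this missed the threshold when any 1 of the 8 libraries was left out (limma adjusted p 0.053 to 0.13).

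**Figure D4:**
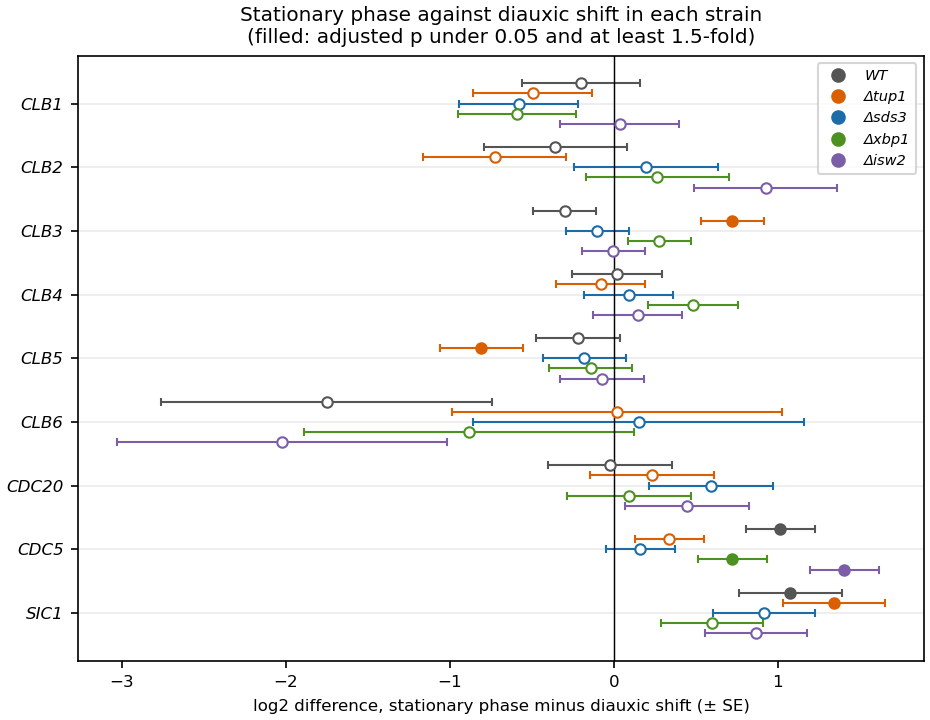
The x axis gives the log2 difference of SP minus DS with its standard error for the 9 members on the y axis, 1 colour per strain; filled points passed an adjusted p of 0.05 with at least 1.5-fold. CDC5 is filled in WT (1.02), Δxbp1 (0.72) and Δisw2 (1.41), and CLB3 only in Δtup1 (0.72).

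Genes that work with the members were described from lists chosen with earlier results of these data known, so their counts are not independent evidence. In Δsds3 SP, 9 of 15 genes of the CLB2 cluster (targets of Mcm1, Fkh2 and Ndd1, which peak in mitosis) rose and 2 fell, with a median log2 difference of 0.84 against 0.00 for all genes and with 27.6% of all genes called higher and 25.4% lower. The bud neck protein gene HOF1 (2.37) and the kinesin gene KIP2 (2.20) rose most, and NUM1 (-0.88) and BUD3 (-0.74) fell. Of 14 MBF targets, which peak at G1/S like CLB5 and CLB6, 10 rose and none fell (median 1.32), led by the corepressor gene NRM1 (2.39) and TOS4 (2.27).

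The machinery around the members moved less evenly in Δsds3 SP. In the mitotic exit network and its FEAR partners, through which Cdc5 acts, 8 of 12 rose and none fell (median 0.85), led by the GTPase gene TEM1 (2.22) and its inhibitor BFA1 (1.75). Of 12 spindle checkpoint and cohesin cleavage genes, 7 rose and 1 fell (median 0.69), with the Aurora kinase gene IPL1 at 2.64, its partner SLI15 at 2.07 and MAD1 at -0.70. Of 14 subunits and activators of the anaphase-promoting complex, on which Cdc20 acts, 3 rose and 4 fell (median -0.07). Among them APC4 (0.98) and APC1 (0.91) rose, and CDH1 (-1.50), which holds the complex active in G1, and SWM1 (-1.24) fell. Of 12 genes for Cdc28 and its direct regulators, 5 rose and 2 fell (median 0.51), with HSL7 (1.29) and HSL1 (1.27), which lead to loss of the kinase Swe1, highest, and SKP1 (-1.34) and CDC34 (-0.88), which take part in Sic1 destruction, lowest. Of 11 transcription regulators of the cycle, 4 rose and 2 fell (median 0.44), with FKH1 at 2.45, SWI6 at 2.20, MCM1 at -0.89 and WHI5 at -0.62. In Δsds3 DS the median was 1.28 in the CLB2 cluster (2 of 15 higher) and 1.10 among MBF targets (1 of 14 higher). It was 0.77 in the exit network, 0.68 in the checkpoint list and 0.48 among transcription regulators. The Cdc28 regulators (-0.11) and the anaphase-promoting complex (-0.28) went the other way, against -0.06 for all genes.

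Genes of other programmes also changed in Δsds3 SP, meiotic markers mostly upward and markers of starved cells mostly downward. Of 12 meiotic markers 7 rose and 2 fell (median 0.95), with SPO13 at 3.20, the kinase gene IME2 at 3.0, SPS4 at -1.28 and SMK1 at -1.19. Of 10 markers of starved cells 1 rose and 6 fell (median -1.22), with the alcohol dehydrogenase gene ADH2 at 1.12, GRE1 at -5.95 and the catalase gene CTT1 at -4.82. In Δsds3 DS, 4 of the 12 meiotic markers rose, among them SPO13 (4.32) and IME2 (3.37), and 1 of the 10 starved-cell markers fell, PCK1 (-4.80), where 1.94% of all genes were higher and 0.852% lower. CLB1, CLB4 and other B-type cyclins also act in meiosis, and the part of these programmes in the members' levels was not tested.

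In Δtup1 SP more genes fell than rose in the CLB2 cluster, among MBF targets and among meiotic markers. Of the 15 CLB2 cluster genes 8 fell and 1 rose (median -1.05), with the transcription factor gene SWI5 at -2.76, ALK1 at -2.36 and KIP2 at 0.70, where 24% of all genes fell and 25.7% rose. Of 14 MBF targets 8 fell and 1 rose (median -1.32), with RAD27 at -2.33 and TOS4 at -1.93. Of 12 meiotic markers 5 fell and 1 rose (median -0.93), with HOP1 at -2.22, SMK1 at -2.17 and IME1 at 1.01. Of the other lists, 4 of 11 transcription regulators fell and none rose, with SWI4 at -1.54 and YHP1 at -1.10, and 5 of 12 exit network genes fell and 2 rose, with SLK19 at -2.94, LTE1 at -1.20, NET1 at 1.89 and CDC15 at 1.55. The checkpoint list had 5 of 12 lower and 3 higher, with MAD1 at -4.00, the cohesin gene MCD1 at -1.97, the securin gene PDS1 at 0.85 and SLI15 at 0.81. The anaphase-promoting complex had 3 in each direction of 14 (median -0.39), the Cdc28 regulators 5 of 12 higher and 2 lower (median 0.22), and the markers of starved cells 2 of 10 higher and 4 lower (median -0.06).

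In Δtup1 DS, 3 of 15 genes of the CLB2 cluster fell and none rose (median -0.46), with SWI5 at -1.32 and ALK1 at -0.95, where 6.27% of all genes fell and 13.8% rose. In Δxbp1 SP, 5 of 14 genes of the anaphase-promoting complex rose and none fell (median 0.23), with MND2 at 1.06 and APC5 at 0.87, and 5 of 12 exit network genes rose and 2 fell (median 0.45), with CDC15 at 0.93, SLK19 at 0.87, SPO12 at -0.73 and NUD1 at -0.65. There 3 of 15 CLB2 cluster genes rose, with KIP2 at 1.83 and the kinase gene KIN3 at 1.69, 5 of 12 meiotic markers fell and 1 rose, and 4 of 10 markers of starved cells fell and 2 rose, where 12.3% of all genes rose and 11.5% fell. In Δisw2 SP, where 1.21% of all genes rose, 1 of 12 meiotic markers rose, the recombinase gene DMC1 (1.19), with a list median of -0.08. There 1 of 10 markers of starved cells rose, the gluconeogenic gene FBP1 (0.82), with a list median of 0.25. Of 14 MBF targets 1 rose (median -0.05). In Δxbp1 DS and Δisw2 DS no gene of these lists was called.

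**Figure D5:**
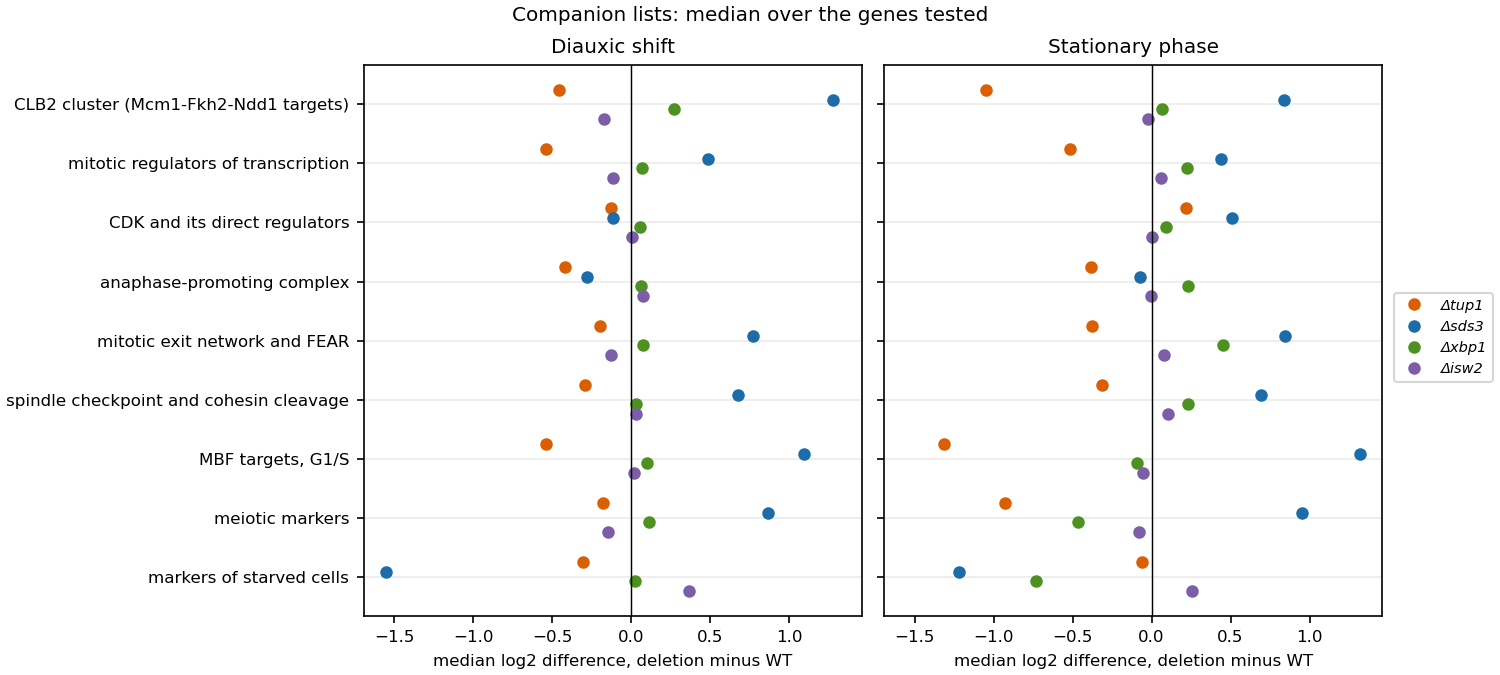
The x axis gives the median log2 difference of each deletion minus WT over the tested genes of each list on the y axis, in DS (left) and SP (right); each colour is a deletion. In SP the Δsds3 medians are 1.32 for MBF targets and -1.22 for markers of starved cells, and the Δtup1 medians are -1.32 for MBF targets and -1.05 for the CLB2 cluster.

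Over the means of the 10 groups, some members varied closely together, others hardly, and CDC5 and SIC1 gave middle values with CLB2 and CDC20. Pearson's r of the log2 level was 0.94 for CLB2 and CDC20, 0.90 for CLB2 and CLB4 and 0.83 for CLB2 and CLB1, and it exceeded 0.7 in 10 of the 36 pairs. CDC5 had r of 0.57 with CLB2 and 0.62 with CDC20, and SIC1 had 0.41 and 0.60 with the same 2 genes. The value was -0.08 for CLB2 and CLB3, 0.25 for CLB3 and CLB4, -0.10 for CLB5 and CLB6, and lowest at -0.64 for CLB5 and SIC1. The pairs over 0.7 were all among CLB1, CLB2, CLB4, CLB6 and CDC20, which were higher in Δsds3 SP. How far the Δsds3 groups set these values, or the likeness to other genes given next, was not tested. These are descriptions over 10 group means that share strains and scaling. Among 5718 genes with a mean of at least 50 scaled counts, CLB2 was followed most closely by DOT1 (r = 0.979), TOF2 (0.954) and VAM6 (0.946), and CDC20 by RIA1 (0.974), SDS22 (0.974) and TAF11 (0.966). CLB5 was followed most closely by GCN4 (0.936), YIP5 (0.919) and AYT1 (0.911), and SIC1 by PAP2 (0.958), SAS10 (0.925) and NOB1 (0.919).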

How the data were processed

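RNA was measured by poly-A selected, paired-end sequencing in 20 libraries. The authors aligned reads with bowtie2 to sacCer3 and deposited, for each deletion and phase, counts divided by DESeq2 size factors, a normalized signal, beside fold changes and p-values of their own comparison, which were not used. Counter, annotation and strand use are not given in the sources used here. Whole reads were recovered from 100% of the values (within 0.1 reads or 2e-06 of the value). The WT reads were the same in the 4 tables of a phase, so comparisons with WT share controls. Libraries are named A and B, because columns show the group but not which labelled replicate. The study calls the 2 libraries of a group biological replicates.

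The main test was limma 3.58.1 (R 4.3.3) with an intensity trend on log2(normalized count + 1), 2 libraries against 2, after edgeR's filterByExpr, with Benjamini-Hochberg adjustment over all genes tested. Fold changes are on that scale and understate the change of low genes. Phases, interactions and strains were compared in 1 fit of all 20 libraries scaled together. edgeR 4.0.16 and DESeq2 1.42.0 on recovered reads, other scalings, pseudocounts, filters and left-out libraries were alternatives, and the scripts were tested on simulated data. The direct strain contrasts and the scaling by total reads were added after the values were seen. Members, companion lists (CLB2 cluster, regulators of transcription, Cdc28 regulators, anaphase-promoting complex, mitotic exit network, spindle checkpoint, MBF targets, meiotic markers, markers of starved cells) and tests were chosen with earlier results of these data known. All members were described, but not each one in every comparison. Of the lists, at most 2 called genes per direction were named, those with the largest change. Some list genes are not reported here.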

Additional observations from a re-analysis of the deposited data

Results flagged for a closer look

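The effect of the TUP1 deletion on CLB3 differed between the phases, by a test of the difference itself. It was 1.02 on the log2 scale higher in SP than in DS (limma adjusted p = 0.039). The DS effect itself was -0.18 (limma adjusted p = 0.71) and the SP effect 0.82 (limma adjusted p = 0.0081), and the difference was lost when any 1 of the 8 libraries was left out.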

How the results depend on the processing

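Counts of members called moved by more than 1.5 times in the comparisons named first. In Δtup1 DS 1 became 0 with no filter and 0 in the fit of all DS groups. In Δsds3 DS 0 became 4 with DESeq2, 4 with the replicate block and 4 in the fit of all DS groups. From DS to SP, WT went from 2 to 1 with scaling by total reads and 1 with the replicate block, Δxbp1 from 1 to 0 with the replicate block and 2 in the fit of its own libraries, and Δisw2 from 1 to 2 with DESeq2 and 3 in the fit of its own libraries. The Δtup1 difference between phases went from 1 to 0 with scaling by total reads. Smaller moves were Δtup1 from DS to SP from 3 to 2 (total reads, replicate block, own libraries), Δtup1 SP from 4 to 3 (no filter, DESeq2) or 5 (edgeR, all SP groups), Δxbp1 SP from 2 to 3 (total reads, no minimum fold), Δsds3 SP from 6 to 7 and Δsds3 against Δtup1 from 6 to 8 (total reads). Leaving out 1 library gave 0 to 7 in Δsds3 DS, 5 to 6 in Δsds3 SP, 0 to 4 in Δtup1 SP, 2 to 4 in Δxbp1 SP, 0 to 1 in Δisw2 SP and 0 to 0 in the DS comparisons of Δtup1, Δxbp1 and Δisw2. It gave 1 to 1 for the phases in WT and in Δisw2, 0 to 3 in Δtup1, 0 to 2 in Δsds3 and 0 to 0 in Δxbp1, and 0 to 1 for the Δsds3 and 0 to 0 for the other 3 differences between phases. For Δsds3 against Δtup1 it gave 4 to 6, for Δsds3 against Δxbp1 3 to 5 and for Δxbp1 against Δtup1 2 to 3. Signs reversed for CDC20 from DS to SP in Δsds3 (-0.22) and in its difference between phases (-0.19) without Δsds3 DS library B, with ranges over left-out libraries of -0.22 to 1.40 and -0.19 to 1.42. They reversed for CLB6 in Δxbp1 from DS to SP (0.28 without SP library A, range -2.05 to 0.28) and in its difference between phases (-0.47 with edgeR, -0.41 without WT SP library B, -0.30 without Δxbp1 SP library B, range -0.41 to 2.14), and for CLB3 in Δsds3 against Δtup1 (0.12, scaling by total reads). The cause was not tested.

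Over all genes, limma called 3294, 2999, 1424 and 114 in Δsds3, Δtup1, Δxbp1 and Δisw2 SP and edgeR 3318, 3011, 1466 and 121. In DS limma called 177, 1264, 29 and 6, edgeR 193, 1298, 35 and 6, and DESeq2 810 in Δsds3, 139 in Δxbp1 and 33 in Δisw2. Scaling by total reads moved the share of calls that were higher from 52.0% to 81.4% in Δsds3 SP, from 51.8% to 68.8% in Δxbp1 SP, from 69.5% to 80.3% in Δsds3 DS and from 68.8% to 35.4% in Δtup1 DS. Deviations of same-numbered libraries correlated between groups at -0.25 to 0.72 in DS and 0.11 to 0.46 in SP, and exceeded 0.1 in 6 of 10 pairs of groups in DS and 10 of 10 in SP. With 2 libraries per group, and no source tying equal numbers to a shared culture or batch, this was taken as a hint only and the numbers were not used as a pairing. In SP the B libraries were also the shallow ones. The 2 libraries per group and the shallow SP B libraries limit the low members, CLB6 and CLB2.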
